A study of Mus musculus with 416 samples.

Results

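Striatal RNA libraries were divided by their level of Ifit3, an interferon-stimulated gene, and the libraries highest and lowest for it were compared. The series holds 416 libraries, each from the drug-naïve striatum of a J:DO mouse. These Diversity Outbred animals descend from several inbred founder strains and differ from one another in genotype along the genome. Labels record sex and breeding generation (21, 22 or 23), and name no treatment. Age is not given in the sources used here. Within each generation, the 25% of libraries with the most Ifit3 were set against the 25% with the least, by CPM (the count over the library total, times 1000000). This chose 210 of 416 libraries, as many high as low, with 38, 30 and 37 of each from generations 21, 22 and 23. The others (74, 59 and 73) are called middle libraries. These are groups made from a measured value, not groups of the study, and the labels give no genotype, infection or treatment that separates them.

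Type I interferons are cytokines released when a cell senses viral or misplaced nucleic acid. They bind the receptor made of Ifnar1 and Ifnar2, whose kinases Jak1 and Tyk2 start the signal. A complex that contains Irf9 then switches on genes that carry an interferon-stimulated response element in their promoter. Ifit3 is among those genes. The related protein Ifit1 binds viral RNA that lacks the cap marks of the host. In brain, microglia, astrocytes, endothelial cells and neurons can all respond to interferon, and a low resting level of the response is known in uninfected tissue. In bulk tissue such as this, fewer cells of a type and less RNA per cell cannot be told apart.

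Ifit3 (ENSMUSG00000074896, chromosome 19) was weakly expressed throughout. The high libraries held 3.47 CPM at the lowest, 4.34 at the median and 10.2 at the highest, and the low libraries 0.469, 1.3 and 2.09 CPM. The groups do not overlap because Ifit3 chose them, and the values are given as a description. The range had no gap at the edges of the groups: in generation 21 the lowest high library stood at 3.76 CPM and the next library outside at 3.72, and the highest low library stood at 1.93 with the next outside at 1.95. In generation 22 the corresponding values were 3.47 and 3.4, and 2.09 and 2.13 CPM. In generation 23 they were 3.79 and 3.78, and 1.9 and 1.9 CPM. Male replicate 34 of generation 22 was highest of all at 10.2 CPM, and male replicate 26 of generation 21 came next at 7.04 CPM. Ifit3b, the near-identical copy of Ifit3 on the same chromosome, moved with it: its median was 3.32 CPM in the high libraries (1.77 to 5.75) and 1.78 CPM in the low (0.354 to 4.05). Reads of these copies can be assigned to either, so Ifit3b was left out of the tests too. Their sum had a median of 7.73 CPM in the high libraries and 3.11 CPM in the low, and Ifit3b made up a median of 42.8% and 58.2% of it.

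**Figure D1:**
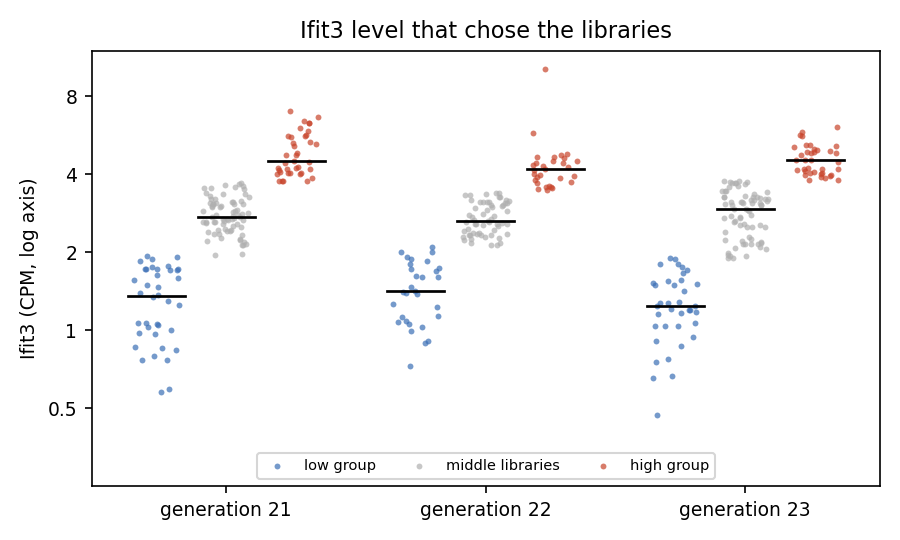
Ifit3 CPM on a log axis for each of the 416 libraries, by generation, with the low, middle and high libraries side by side and black bars at the medians. The groups are cut from a continuous range, and male replicate 34 of generation 22 stands above all others at 10.2 CPM.

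High and low libraries were alike in depth, with a median total of 43037587 counts against 43950501 (all 416 ran from 20331813 to 77458299). Mitochondrially encoded genes took 4.67% and 4.53% of counts at the median. The labelled sexes were not evenly spread: the high group held 47 libraries labelled female and 58 labelled male, the low group 55 and 50. In generation 21 it was 16 and 22 in the high group against 26 and 12 in the low. The level of the X-linked transcript Xist went against the labelled sex in 11 high and 8 low libraries, and Y-linked transcripts were not used for this. A low total or a low correlation with the rest set apart 5 high and 9 low libraries. The summed level of 16 spiny projection neuron markers, which define striatum, ran from 1844 to 11190 CPM with medians of 9319 (high) and 9378 (low). All 210 chosen libraries thus held striatal RNA, although some held less.

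Between high and low libraries, 23 of 22966 genes tested were called (0.1%, edgeR quasi-likelihood test with generation as covariate, Benjamini-Hochberg adjusted p under 0.05). Of these 9 were higher in the high libraries (0.0392% of those tested) and 14 lower (0.061%). At an unadjusted p under 0.05 there were 1889 genes (8.23%). Changes are given as log2 of high over low with their standard error. The called genes are described in turn. Neighbours of Ifit3 on chromosome 19 come first, together with Rpl9, whose processed copy lies there. A few interferon and immune genes elsewhere follow, and then the rest, some of them with extreme values. Of the listed interferon-stimulated effectors 7.02% were called, against 0.1% of all genes, and most of the 57 were not. The groups are therefore called here by their Ifit3 level and not by an interferon state.

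Chromosome 19 held 10 of the 23 called genes, of 620 tested there (1.61%), against 13 of 22346 on all other chromosomes (0.0582%). All 10 lay near Ifit3. In the order of measured genes, 6 of the 19 tested within 10 places of Ifit3 on either side were called (31.6%), and 10 of the 49 within 25 places (20.4%). Within 50 places it was 10 of 99 (10.1%). They went in both directions: 3 were higher and 7 lower in the high libraries. The order comes from the GENCODE M21 annotation. Whether the changes of neighbouring genes are tied to one another was not tested.

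**Figure D2:**
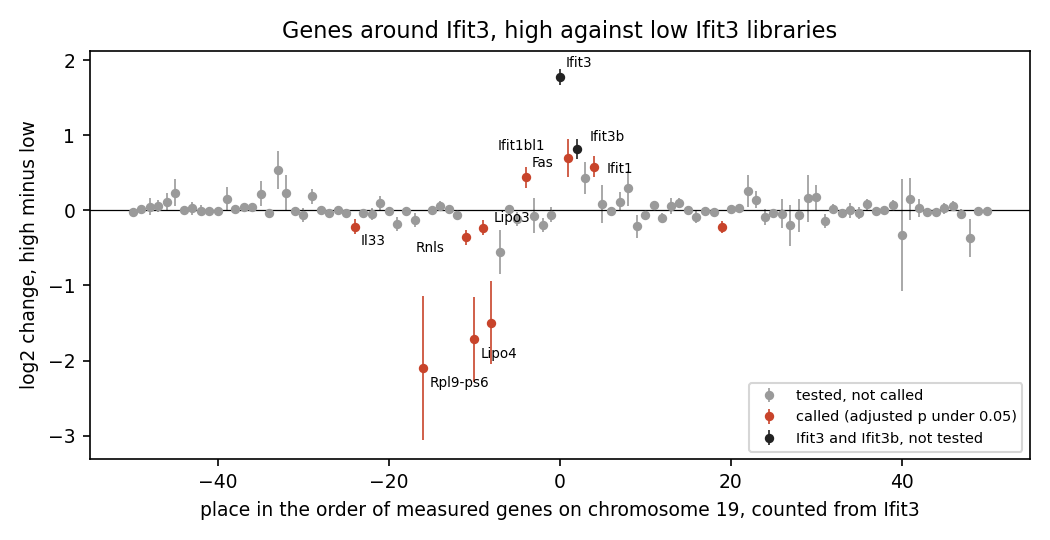
Log2 change between high and low Ifit3 libraries (n = 38, 30 and 37 of each in generations 21, 22 and 23) for genes up to 50 places from Ifit3 in the order of measured genes on chromosome 19, with lines for the 95% interval. Called genes are red, and they lie on both sides of Ifit3 with changes in both directions.

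Among the higher neighbours were genes of the Ifit cluster itself. Ifit1 (ENSMUSG00000034459), which encodes an RNA-binding protein, ran from 0.527 to 4.87 CPM in the high libraries with a median of 1.38. In the low libraries it ran from 0.299 to 1.95 CPM with a median of 0.956. It was 1.5-fold higher (log2 0.585 ± 0.074 SE, edgeR adjusted p = 2.83e-09), and 86.7% of the high libraries lay above the median of the low, although the groups overlap widely. Ifit1bl1 (ENSMUSG00000079339), an Ifit1-like gene next to Ifit3, had medians of 0.586 CPM (0.121 to 2.52) and 0.384 CPM (0 to 1.02). It was 1.63-fold higher (log2 0.70 ± 0.13, edgeR adjusted p = 0.000781). Its relative Ifit1bl2 showed a log2 difference of 0.44 ± 0.11 that did not pass (edgeR adjusted p = 0.0881). The genes of this cluster are alike in sequence, so some reads may be shared among them.

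Not every member of the cluster differed. Ifit2, another antiviral Ifit gene and the measured gene directly before Ifit3, had medians of 6.39 CPM (4.21 to 9.81) in the high libraries and 6.48 CPM (2.32 to 16.8) in the low. Its log2 difference was -0.055 with an interval of -0.16 to 0.049 (edgeR adjusted p = 0.844). The interval leaves out changes of the size seen in Ifit1. On the other side of the cluster Slc16a12, a creatine transporter gene, was at 1.59 CPM (0.902 to 21.1) against 1.54 CPM (0.672 to 10.7) and was not called (log2 0.090 ± 0.13, edgeR adjusted p = 0.914).

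Fas (ENSMUSG00000024778), the death receptor gene 4 places before Ifit3, was also higher. It ran from 0.237 to 1.53 CPM in the high libraries with a median of 0.802, and from 0.131 to 1.32 CPM in the low with a median of 0.597 (log2 0.44 ± 0.072, edgeR adjusted p = 2.89e-05). The medians of the high libraries lay above those of the low in generation 21 (0.675 against 0.585 CPM), in 22 (0.784 against 0.545) and in 23 (0.945 against 0.63). Acta2, Gm26902 and Lipa, which lie beside Fas in the gene order, were not called. Lipa, the lysosomal acid lipase gene, came nearest at 9.08 CPM (5.98 to 29.7) against 10.2 CPM (5.92 to 24.8), with a log2 difference of -0.20 ± 0.048 (edgeR adjusted p = 0.0574).

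Beyond Fas lay a run of genes that were lower in the high libraries. Rnls (ENSMUSG00000071573), which encodes the flavoprotein renalase, had medians of 1.74 CPM (0.972 to 3.04) and 2.2 CPM (1.17 to 4.37). Its log2 difference was -0.36 ± 0.050 (edgeR adjusted p = 8.18e-08), and 85.7% of the low libraries lay above the median of the high. Medians were lower in the high libraries of each generation, at 1.69 against 2.15, 1.78 against 2.12 and 1.72 against 2.21 CPM in 21, 22 and 23. The lipase-family genes Lipo4 and Lipo3 follow Rnls in the order. Lipo3 had medians of 9.25 CPM (5.59 to 17.3) and 10.8 CPM (6.16 to 23.9), a log2 difference of -0.23 ± 0.051 (edgeR adjusted p = 0.0136). Lipo4 was near the detection limit, with medians of 0 CPM (0 to 0.725) and 0.0647 CPM (0 to 0.763). Its log2 difference was -1.72 ± 0.29 (edgeR adjusted p = 5.64e-05), a fitted value that depends on the prior count. Gm8980, an unnamed gene model between them and Ifit3, was as low, at medians of 0 and 0.0474 CPM (log2 -1.50 ± 0.28).

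Farther out, Il33 (ENSMUSG00000024810), the alarmin cytokine gene that glia of the brain express, lay 24 places before Ifit3. Its medians were 41 CPM (20.7 to 82.9) in the high libraries and 45.5 CPM (25.8 to 109.1) in the low, a log2 difference of -0.22 ± 0.051 (edgeR adjusted p = 0.0397). The noncoding gene A330032B11Rik, 19 places after Ifit3, had medians of 2.16 CPM (1.35 to 3.61) and 2.62 CPM (1.33 to 3.94), a log2 difference of -0.22 ± 0.041 (edgeR adjusted p = 0.000681). Most genes in between were not called.

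The last neighbour, Rpl9-ps6, is a processed copy of the ribosomal protein gene Rpl9 and was either nearly absent or abundant. It exceeded 10 CPM in 12 high libraries (11.4%) and 50 low libraries (47.6%), reaching 134.9 and 148.8 CPM. Medians were 0.0932 and 1.13 CPM, and the log2 difference was -2.10 ± 0.49 (edgeR adjusted p = 0.0317). Rpl9 itself, on chromosome 5, went the other way, with medians of 162.8 CPM (39.1 to 201.4) in the high libraries and 137.8 CPM (37.3 to 203.8) in the low (log2 0.42 ± 0.088, edgeR adjusted p = 0.00468). The sum of the pair was much the same in both groups, at medians of 164.5 CPM (lowest 114.3) and 165.9 CPM (lowest 130.8). The libraries with much Rpl9-ps6 were thus those with little Rpl9. Reads of such copies can be given to either gene by the authors' counting, so the changes of Rpl9 and Rpl9-ps6 are uncertain as single-gene values.

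**Figure D3:**
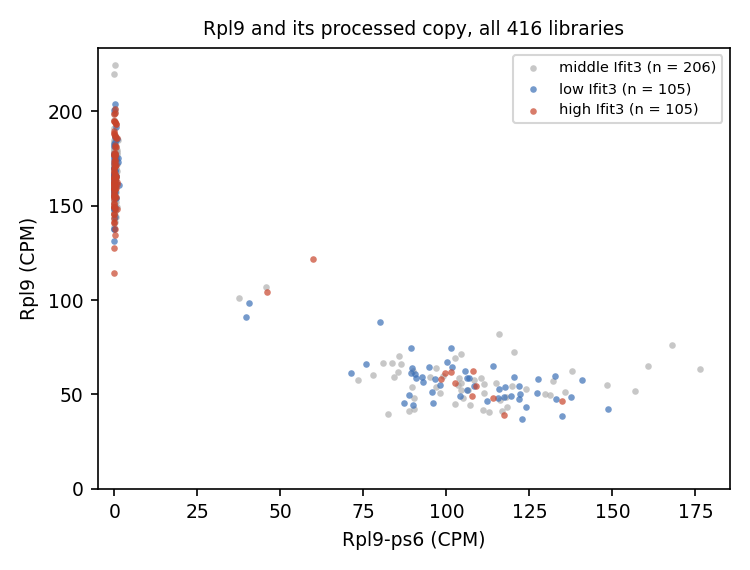
Rpl9 CPM against Rpl9-ps6 CPM in all 416 libraries, coloured by Ifit3 group. Libraries fall near 0 CPM of Rpl9-ps6 with high Rpl9, or at high Rpl9-ps6 with low Rpl9, and the second cluster holds 50 low and 12 high Ifit3 libraries above 10 CPM.

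Away from chromosome 19, 2 interferon-stimulated genes were called. Usp18 (ENSMUSG00000030107, chromosome 6), the protease that removes the Isg15 tag and damps receptor signalling, had medians of 0.437 CPM (0.0981 to 2.36) and 0.358 CPM (0.0686 to 0.895). Its log2 difference was 0.44 ± 0.096 (edgeR adjusted p = 0.0123). Oasl2 (ENSMUSG00000029561, chromosome 5), of the oligoadenylate synthetase family of RNA sensors, had medians of 1.36 CPM (0.294 to 5.96) and 1.13 CPM (0.383 to 4.25), a log2 difference of 0.40 ± 0.095 (edgeR adjusted p = 0.0356). The groups overlap nearly throughout for both genes. In generation 23 neither was higher at the median in any clear way, with Usp18 at 0.392 against 0.384 CPM and Oasl2 at 1.13 against 1.18 CPM. The change of these genes was not shown to differ between generations (edgeR interaction, adjusted p = 0.458 for Usp18 and 0.562 for Oasl2). Oasl2 no longer passed without male replicate 34 of generation 22 (log2 0.37, edgeR adjusted p = 0.0733). Without the 10 libraries of highest Ifit3 neither passed (Usp18 log2 0.38, adjusted p = 0.0966, and Oasl2 log2 0.29, adjusted p = 0.352, edgeR). With limma voom neither passed (adjusted p = 0.0595 for Usp18 and 0.318 for Oasl2). Irak3, which restrains Toll-like and interleukin-1 receptor signalling, was at 1.81 CPM (0.818 to 4.75) against 1.47 CPM (0.6 to 3.86), a log2 difference of 0.29 ± 0.068 (edgeR adjusted p = 0.0397).

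**Figure D4:**
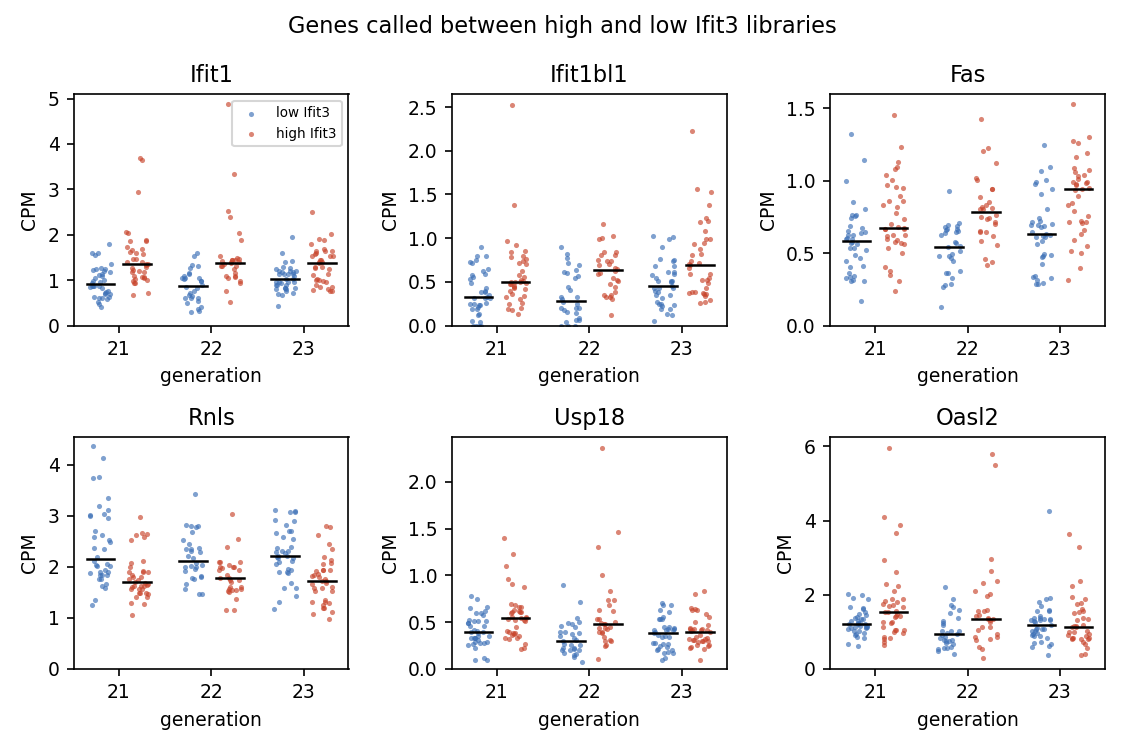
CPM of Ifit1, Ifit1bl1, Fas, Rnls, Usp18 and Oasl2 in each high and low Ifit3 library by generation, with black bars at the medians. Fas and Ifit1 are higher and Rnls lower at the median of the high libraries in all 3 generations, with broad overlap, while Usp18 and Oasl2 are level in generation 23.

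Of the remaining called genes, Prkcd, Shox2, Rpl19-ps1 and Frmd7 had medians far below their highest values. Shox2, Prkcd, Lhx9, Tnnt1 and Abhd12b were lower in the high libraries by log2 values from -1.94 to -0.67. Shox2, Lhx9 and Prkcd are genes of thalamic or neighbouring diencephalic neurons. Prkcd, a protein kinase C gene, had nearly equal medians of 5.15 CPM (3 to 25.5) and 5.31 CPM, but 1 low library reached 544.7 CPM. Shox2, a homeobox gene, had medians of 0.123 CPM (0 to 3.03) and 0.141 CPM, with a highest low library at 92.4 CPM. The summed level of 7 thalamic markers was 1482 CPM in female replicate 1 of generation 21, a low library, against a median of 56.5 CPM in the low libraries and 56.7 in the high. The 4 next highest were female replicates 29, 19 and 30 of generation 21 and female replicate 48 of generation 23, down to 105.1 CPM, and replicate 30 alone among these 5 was a high library. Without these 5 libraries the log2 difference was -0.024 for Prkcd (edgeR adjusted p = 0.949), -0.15 for Shox2 (adjusted p = 0.913) and -0.066 for Abhd12b (adjusted p = 0.966). Prkcd is one of the 7 markers whose sum picked these libraries, so its smaller difference was partly set by that choice. Without them 18 genes were called in place of 23. Il33 and Oasl2 had nearly the same differences there but missed the threshold (log2 -0.21, adjusted p = 0.0689, and log2 0.40, adjusted p = 0.0687, edgeR). Rpl19-ps1, a copy of the ribosomal gene Rpl19, reached 10.3 CPM in the low libraries from a median of 0.175, and was at -0.33 without those that stood apart by total or correlation (edgeR adjusted p = 0.644), while without the 5 libraries above it passed at -0.84 (adjusted p = 0.0379). Frmd7, a FERM-domain gene on the X chromosome, went up to 10.9 CPM in the high libraries from a median of 0.411 CPM, against 0.368 CPM (0.0424 to 1.36) in the low. The unnamed models Gm10717 (log2 0.94) and Gm6166 (log2 -1.56) complete the 23.

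The interferon-stimulated effectors were then taken as a list, since the groups were labelled by an interferon gene. Of 67 listed genes 57 were measured, and 4 were called (7.02%, against 0.1% of all genes), all higher: Ifit1, Ifit1bl1, Usp18 and Oasl2. On chromosome 19 this was 2 of 3 measured and on the other chromosomes 2 of 54 (3.7%, against 0.0582% of all genes there). The median log2 difference of the 57 was 0.062, with 44 (77.2%) above 0, beside a median of 0.001 and 50.6% above 0 over all genes tested. At an unadjusted p under 0.05, 19 of them were higher (33.3%) and 0 lower, beside 4.28% and 3.94% of all genes tested. The antiviral genes Mx2, Ifi44, Oas1a and Mx1 came nearest in size. Mx2, a dynamin-like GTPase gene, was at 1.4 CPM (0.369 to 12.5) against 1.11 CPM (0.239 to 4.5), a log2 difference of 0.48 that did not pass (edgeR adjusted p = 0.139). Isg15, the ubiquitin-like tag and a standard marker of the response, was at 0.636 CPM (0.175 to 1.42) against 0.623 CPM (0.229 to 1.16). Its log2 difference was 0.025 with an interval of -0.104 to 0.154 (edgeR adjusted p = 0.96). Rsad2, the gene of the antiviral enzyme viperin, was at 1.0 CPM (0.345 to 2.71) against 0.87 CPM (0.169 to 2.46), at 0.18 with an interval of 0.022 to 0.332 (edgeR adjusted p = 0.531).

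Upstream of these effectors 0 members were called. Of 20 interferon, cytokine and chemokine ligands only 3 were measured well enough to test. Ifnb1 was above 0 in 10 of the 416 libraries and Ifng in 34, with medians of 0 CPM. All 22 receptor and signalling genes were measured, with a median log2 difference of 0.005. Of them 2 were higher at an unadjusted p under 0.05, beside 4.28% of all genes tested. Ifnar1 was at 42.9 CPM (29.5 to 49.5) against 42.4 CPM (38.8 to 51.9), and its interval of -0.033 to 0.013 on the log2 scale leaves out all but small differences. Irf7, the transcription factor that amplifies the response, was at 1.34 CPM (0.687 to 3.99) against 1.27 CPM (0.576 to 2.49), at 0.13 (edgeR adjusted p = 0.518). The 16 nucleic acid sensors had a median of 0.037, among them Ddx58 (RIG-I) at 0.060 and Ifih1 (MDA5) at 0.099. Of these sensors 1 was higher at an unadjusted p under 0.05, beside the same 4.28% of all genes tested.

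Genes shared with the interferon gamma response gave more uniform but uncalled differences. The 18 measured guanylate-binding and immunity-related GTPase genes had a median log2 difference of 0.20, with 17 above 0 and 10 higher at an unadjusted p under 0.05 (55.6%, beside 4.28% of all genes), but 0 passed over all genes. Their summed level had medians of 31.4 CPM (21.9 to 146.2) in the high libraries and 29.4 CPM (19.3 to 69.4) in the low. The 23 genes of MHC class I and peptide loading had a median of 0.060, with 17 above 0 and 7 higher at an unadjusted p under 0.05 (30.4%), and 0 passed. Marker lists of the cell types that could hold the response were compared in the same way. All 17 microglial markers were measured and 0 were called (median log2 0.020), with summed levels of 357.1 CPM (278.9 to 484.3) in the high libraries and 349.3 CPM (278.7 to 445.7) in the low. Endothelial, astrocyte, oligodendrocyte and spiny projection neuron lists had medians of -0.007, 0.003, 0.012 and -0.020, with 0 called in each. Other lists were less even: all 10 ependymal markers lay above 0 (median 0.109, with 2 higher at an unadjusted p under 0.05) and 9 of 10 choroid plexus markers (median 0.059). Of 10 fibroblast and meningeal markers 1 lay above 0 (median -0.065). Of these lists 0 members were called, and their summed levels had medians of 30.1 against 29.4 CPM (ependymal), 182.9 against 172.6 CPM (choroid plexus) and 79.2 against 81 CPM (fibroblast and meningeal). Their part in the differences of the interferon lists was not tested. The 7 thalamic neuron markers had the median farthest from 0 among the lists, at -0.239, with Prkcd called lower. At an unadjusted p under 0.05, 5 of them were lower and 1 was higher, beside 3.94% and 4.28% of all genes tested. Their summed level had nearly equal medians of 56.7 CPM (46.4 to 105.1) in the high libraries and 56.5 CPM (37.8 to 1482) in the low. Of 9 heat shock genes 0 lay above 0 (median -0.073), with 2 lower at an unadjusted p under 0.05 and 0 called. T, NK and B cell markers had 7 of 16 measured and 0 called, and Cd3e stood at a median of 0.0216 CPM over all libraries.

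The middle libraries, which the choice did not use, were asked whether genes follow Ifit3 there as well. The slope of each gene on log2 Ifit3 CPM was fitted with generation as covariate, and 0 of 22966 genes were called (0%). At an unadjusted p under 0.05 there were 1319 (5.74%) by edgeR, and limma voom called 0 with 1273. The range of Ifit3 among these libraries is narrow, at 0.99 on the log2 scale. Of the 23 genes called between high and low libraries, 21 had a slope of the same sign in the middle libraries, 10 of 10 on chromosome 19 and 11 of 13 elsewhere. At an unadjusted p under 0.05, 9 had the same sign, among them Lipo4 (p = 6.76e-05, adjusted p = 0.31), A330032B11Rik (p = 0.000527, adjusted p = 0.591), Ifit1bl1 (p = 0.00101, adjusted p = 0.681), Rnls (p = 0.00372, adjusted p = 0.782) and Ifit1 (p = 0.0365, adjusted p = 0.857). Usp18 and Oasl2 had slopes of 0.026 ± 0.15 and 0.116 ± 0.16 log2 units per log2 unit of Ifit3.

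For comparison, high and low groups of the same size were chosen by Oasl2 in place of Ifit3, with the same fit. They share libraries with those by Ifit3: 41 libraries were high in both and 28 low in both, while 23 were high by Ifit3 and low by Oasl2, and 21 the reverse. High Oasl2 libraries held 1.51, 1.87 and 5.96 CPM of Oasl2 at the lowest, median and highest, and low ones 0.294, 0.735 and 1.01 CPM. This choice called 601 of 22965 genes (2.62%), of which 497 were higher and the rest lower. Among the interferon-stimulated effectors, leaving out Oasl2, 32 of 56 were called higher, with a median log2 difference of 0.23, beside 4 of 57 with a median of 0.062 by Ifit3. Parp14 had a log2 difference of 0.39 by Oasl2 (edgeR adjusted p = 1.84e-18) and 0.11 by Ifit3 (adjusted p = 0.399). Isg15 was at 0.22 (adjusted p = 0.0387) and 0.025 (adjusted p = 0.96). Of the GTPase genes 14 of 18 were called by Oasl2, and of the MHC class I genes 10 of 23, against 0 of each by Ifit3. Among the effectors called by Oasl2, Oas1a, Oas1b and Oas2 lie on chromosome 5, as Oasl2 does, and the rest on other chromosomes. Genes near Oasl2 were not set apart, and cell type markers were not compared for this choice. Ifit1 differed either way (0.63 by Oasl2 and 0.585 by Ifit3), whereas Ifit1bl1 was at 0.040 by Oasl2 (adjusted p = 0.921). Of the 49 genes tested within 25 places of Ifit3, 2 were called by Oasl2, beside 2.62% of all genes. By Ifit3 it was 10 of 49 (20.4%), beside 0.1% of all genes. Ifit3 itself had medians of 3.21 and 2.64 CPM in the high and low Oasl2 libraries, a log2 difference of 0.28. The difference between the 2 choices was not tested.

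**Figure D5:**
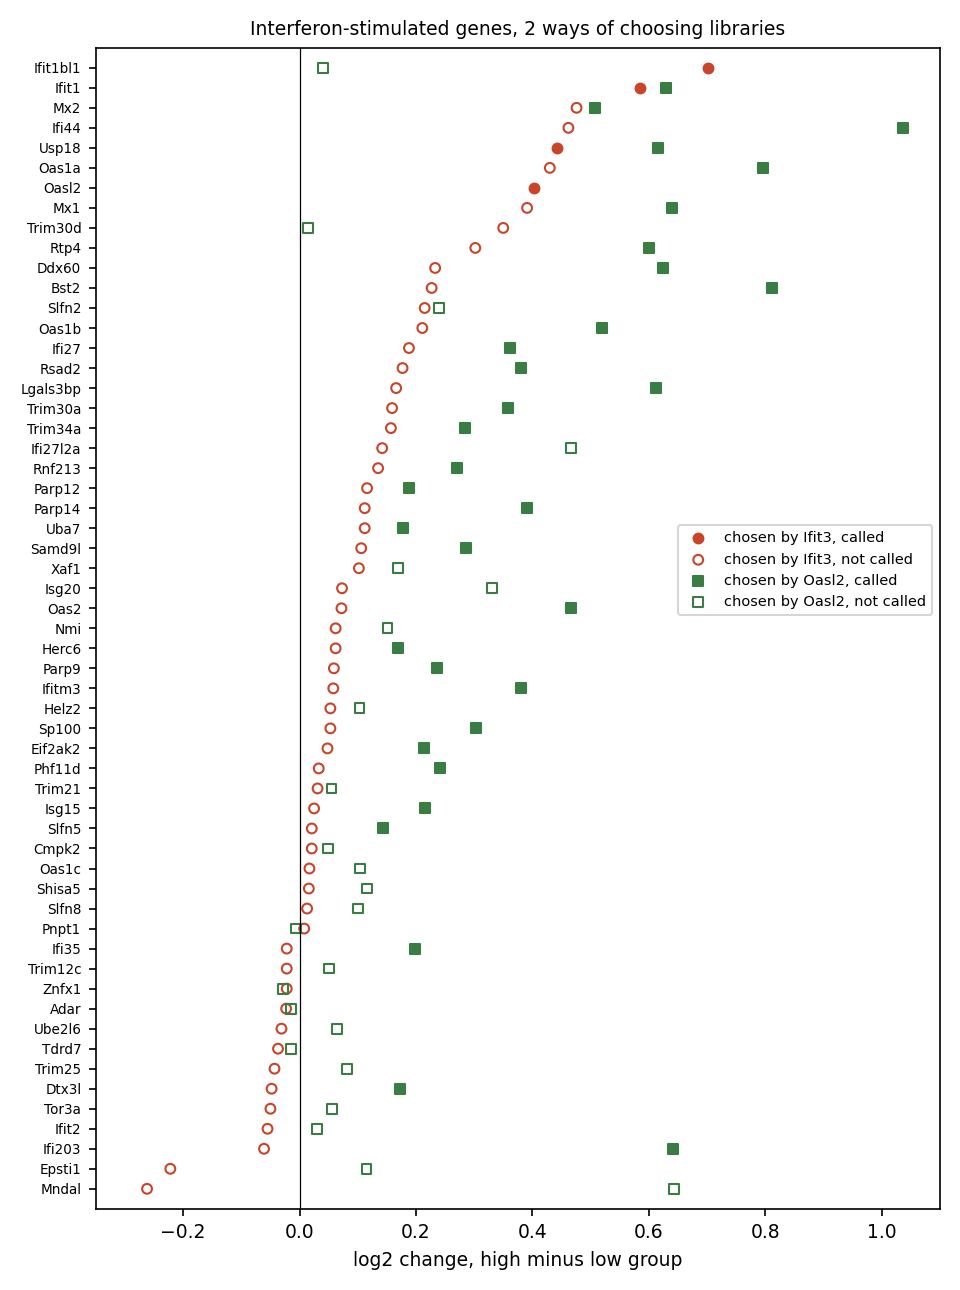
Log2 change of 57 interferon-stimulated effectors between high and low groups chosen by Ifit3 (circles) and by Oasl2 (squares, without Oasl2 itself), filled where called. By Ifit3, 4 genes are called, and by Oasl2, 32 of 56, and the choices share libraries.

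Some of the Ifit genes share a short sequence in their promoters. The core of the interferon-stimulated response element was searched as GAAANNGAAA on both strands (TTTCNNTTTC on the other) in RefSeq windows from 250 bases before to 50 bases after each start. It occurred in 3.44% of 32851 windows, in 3.68% of 13737 tested genes with a window, and in 21 of 46 interferon-stimulated effectors (45.7%). Windows are from GRCm38.p6, and matches are in capitals below. Ifit3 (chr19:34583353-34583452, plus strand) holds 2 matches, and these 100 bases are identical in Ifit3b (chr19:34607749-34607848, plus strand). Ifit1 (chr19:34640765-34640864, plus strand), which moved with Ifit3, has 2, and Isg15 (chr4:156200819-156200918, minus strand), which did not pass, has 3 that overlap. Ifit2 and Oasl2 have 0 in the 250 bases before each start, which says only that these letters are not there.
Ifit3: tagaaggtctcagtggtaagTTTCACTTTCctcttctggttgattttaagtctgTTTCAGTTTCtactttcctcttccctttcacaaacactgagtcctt
Ifit1: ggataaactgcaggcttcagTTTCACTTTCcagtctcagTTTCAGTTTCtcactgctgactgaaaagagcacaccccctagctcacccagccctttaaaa
Isg15: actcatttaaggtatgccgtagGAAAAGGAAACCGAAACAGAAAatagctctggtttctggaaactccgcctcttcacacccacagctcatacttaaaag

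Few called genes held the motif, though its share was higher among them than over all genes tested (3 of 16 called genes with a window, 18.8%, and 3 of 7 called higher, 42.9%, against 3.68% of tested genes with a window). This difference was not tested. Of 506 tested genes with the motif, 3 were called (0.593%), all higher (Ifit1, Ifit1bl1 and Frmd7), with a median log2 difference of 0.005 and 56.3% above 0. Of 13231 without it, 13 were called (0.0983%), 4 higher and 9 lower, with a median of 0.001 and 50.4% above 0. Fas and Rpl9, which were higher, have no match. Usp18 and Rnls are not named in the promoter table.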

How the data were processed

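RNA of 416 striata was sequenced as 100 bp pairs after depletion of ribosomal RNA with a stranded kit, per the labels' protocols. The deposited table holds the authors' estimated counts per gene (23.8% not whole). The aligner, counting tool, genome build and annotation are not given in the sources used here. Names and chromosomes came from GENCODE M21 by gene ID (46005 of 46517, 98.9%).

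Counts were rounded (0.005% of the total moved) and genes kept with filterByExpr over 6 sex by generation groups (minimum count 10), leaving 22968. The other 23549 IDs were not tested. Ifit3 and Ifit3b were described only. TMM factors were taken over all 416 libraries. The fit was edgeR 4.0.16 (R 4.3.3), quasi-likelihood, robust, two-sided, Benjamini-Hochberg over 22966 genes. CPM are counts over the library total, with estimated counts under 0.5 set to 0. DESeq2 1.42.0 and limma 3.58.1 were alternatives. On simulated data of 6000 genes the Ifit3 comparison recovered 60%, 82%, 92% and 98% of genes changed 1.1, 1.2, 1.5 and 2-fold. It made 11 false calls among 5800 unchanged genes. There 50 genes were changed by each fold, a larger part than the 0.1% called here. The simulated counts were also drawn without outlying libraries, so these shares need not hold for the real comparison. Libraries are separate animals per their labels, and p-values measure the spread between them. Replicates are numbered in accession order.

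The members and the 29 gene lists were chosen with earlier results of these data known. Named genes are called genes with a gene name (per direction the 12 of largest change whose mean log2 CPM reached 1 with the same sign in every generation and sex, and the 6 of smallest p), called list members, members of the interferon lists and 5 measured genes either side of Ifit3. Irak3, Tnnt1, Lhx9, Rpl9-ps6 and the unnamed models were chosen after their values were seen, as were the sums of gene copies.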

Additional observations from a re-analysis of the deposited data

Results flagged for a closer look

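For 4 named genes the change between high and low libraries differed between generations (edgeR interaction test, Benjamini-Hochberg adjusted). For Prkcd the adjusted p was 0.002, with log2 differences of -1.77, -0.045 and -0.13 in generations 21, 22 and 23. For Frmd7 it was 0.0126, with 1.54, 0.25 and 0.13. For Rpl19-ps1 it was 0.016, with -2.43, -0.12 and -0.54. For Shox2 it was 0.0357, with -3.52, 0.093 and -1.40. In each the largest change was in generation 21. Female replicate 1 of that generation, a low library, held a summed thalamic marker level of 1482 CPM. Without the 5 chosen libraries of highest thalamic level the log2 difference was -0.024 for Prkcd, itself one of the summed markers, and -0.15 for Shox2. Rpl19-ps1 still passed without them. The part of these libraries in the differences between generations was not tested. Over all genes 25 were called for this interaction (0.109% of those tested).

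For Slc16a12 the change differed between the labelled sexes (edgeR interaction test, adjusted p = 0.0271): the log2 difference was -0.41 in libraries labelled female and 0.58 in those labelled male. This interaction was called for 0.649% of all genes tested, so it was not particular to Slc16a12, and the labelled sexes are unevenly spread between the groups.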

How the results depend on the processing

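Genes called, 23 as reported, numbered 18 to 29 with DESeq2, RLE factors, groups by TMM-scaled CPM, labelled sex, total and mitochondrial share or 6 marker scores as covariates, without libraries against their labelled sex, without those of low total or correlation, without male replicate 34 of generation 22, and without 5 libraries of high thalamic level. The last 2 were chosen after seeing the data. The effectors called (4) numbered 3 to 5 there. The genes called there were not all the same ones. Of the 23 reported, 16 recurred with DESeq2, 16 with 6 marker scores and 15 with total and mitochondrial share. It was 15 without libraries of low total or correlation and 15 without the 5 of high thalamic level. The rest of these settings kept more, from 18 with labelled sex to 23 with RLE factors. Other settings moved the counts of genes and effectors: 9 and 2 with limma voom, 10 and 1 at a mean CPM of at least 1, 11 and 2 for the top and bottom 10% (84 libraries), 15 and 2 without the 10 highest libraries, 13 and 2 at adjusted p under 0.01, 45 and 7 for the slope over all 416 libraries, and 601 and 32 by Oasl2. With no filter 180 genes were called. In single generations 21, 22 and 23 the counts were 20, 5 and 3 genes with 2, 1 and 0 effectors. Labelled females alone gave 3 and 1, labelled males alone 41 and 3. The cause was not tested. In the middle libraries a mean CPM of at least 1 gave 1 call in place of 0. Of 23 alternatives Ifit1 lost its call in 1 and Rnls in 3. Other calls were less stable: Lipo3 lost its call in 10 of 23, Il33 in 12 and Prkcd in 16. Of 22 alternatives that held them, Fas lost its call in 4, and Lipo4 and Ifit1bl1 in 5 each. Usp18 lost it in 9 of 22, and Oasl2 and Abhd12b in 12 each. Signs turned for Shox2 in generation 22 alone (0.093), Rpl19-ps1 by Oasl2 (0.177) and Prkcd for the top and bottom 10% (0.067). Low counts limit Lipo4, Usp18 and most ligands. No paired analysis was possible because replicate numbers follow accession order only.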

Other observations

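The library with the most Ifit3, male replicate 34 of generation 22, ranked high for many interferon genes. Among 416 libraries it ranked first in 10 of 57 interferon-stimulated effectors and within the 10 highest in 31 of them. Over all genes tested these shares were 0.444% and 6.89%. Genes named next were picked for ranking first. It held 4.87 CPM of Ifit1, 3.99 CPM of Irf7 (median over all libraries 1.28), 13.3 CPM of Irf9 (median 8.85) and 9.28 CPM of Ddx58 (median 4.25). It was within the 10 highest for 11 of 18 GTPase genes and 12 of 23 MHC class I genes. Of the receptor and signalling genes 5 of 22, and of the sensors 5 of 16, were within the 10 highest. Ifnar1 was not high in it, at 39.1 CPM (median 42.7). The library was singled out after its values were seen, and a single library carries no test.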
